A study of Mus musculus with 12 samples.

Results

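Genes of DNA methylation, TET oxidation and the GADD45 stress response were followed in the RNAseq of mouse dorsal root ganglia (DRG): Tet1, Tet2, Tet3, Dnmt1, Dnmt3a, Uhrf1, Gadd45a, Gadd45b and Gadd45g. They were taken by name, 9 of the 44345 gene names in the table of read counts. The list of names was made with earlier results of these data known. All 9 passed the filter on low counts that left 16238 gene names to test. After sciatic nerve axotomy (SNA), Gadd45a rose 3.35-fold in standard housing (SH) and 3.03-fold in environmental enrichment (EE), and Gadd45g and Tet3 rose by smaller amounts in both. Dnmt1 rose after SNA in SH, a call that some of the alternative analyses lost. In EE it passed only the unadjusted threshold, and its effects in the housings were not shown to differ. None of the 9 genes passed the test of a difference between EE and SH, after sham surgery or after SNA.

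DNA methylation is the addition of a methyl group to cytosine, in most mammalian cells mainly where a guanine follows (CpG). Dnmt3a encodes an enzyme that sets new methyl groups, Dnmt1 the enzyme that copies them onto the new strand when DNA is replicated, and Uhrf1 the protein that brings Dnmt1 to hemimethylated DNA in dividing cells. The TET enzymes oxidize methylcytosine, which base excision repair can then replace by plain cytosine. The GADD45 genes encode small stress-induced proteins that bind, among others, the kinase MAP3K4, cyclin-dependent kinase 1 and PCNA, and that have been linked to DNA demethylation. Neurons of the adult ganglion do not divide, whereas glia, immune cells and endothelium in it can.

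All mice were C57BL/6, 5 to 8 weeks old, and the labels name no engineered allele. They lived for 10 days in SH or EE, then had SNA or sham surgery, and the sciatic DRG (L4-L6) were taken 24 h later, which gives, for SH, the groups SH Sham and SH SNA and, for EE, the groups EE Sham and EE + SNA. A group had 3 samples, each a pool of the ganglia of 2 mice, so 6 mice stand behind a group. Whole ganglia were extracted, so that fewer cells of a type and less RNA per cell cannot be told apart. The study took EE Sham from an earlier dataset and the labels give no date, so in comparisons of EE Sham with other groups a difference between datasets cannot be told apart from one between groups.

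The libraries held 11343579 to 22871460 reads counted on genes. The normalised read count is given as CPM, the read count made relative to library size by edgeR, after scaling each library by TMM. The 12 sensory neuron marker genes were all detected. They summed to 15780 to 17870 CPM after sham surgery and 14800 to 15990 CPM after SNA. After SNA, 3 of them were called lower by edgeR after adjustment in SH and 1 in EE. At an unadjusted p of 0.05 by edgeR, 7 were lower in SH and 6 in EE, and none was higher. Over all tested genes, 11.2% were called after adjustment in SH and 4.83% in EE, and 25.2% and 20.6% passed without it. All 6 injury response genes (among them Atf3, Jun and Gap43) were called higher after SNA in both housings. Some libraries stood apart. The library EE + SNA replicate 3 had the highest summed levels of the neutrophil list (594.3 CPM against 59.24 to 255.5 CPM in the other 11), of the macrophage list (267.7 CPM) and of the S phase and mitosis list (159.9 CPM). SH SNA replicate 2 had 883.4 CPM of the skeletal muscle list, against 3.05 to 151.4 CPM elsewhere. The summed macrophage markers (9 genes measured, none at 0) were at 124.2 to 156.9 CPM after sham surgery and 152.1 to 267.7 CPM after SNA. The red blood cell list (3 of its 5 genes measured, of which Hba-a1 and Hba-a2 are near-identical copies) summed to 110.8 to 307.1 CPM after sham surgery and 175.1 to 595.2 CPM after SNA, with EE + SNA replicate 3 (595.2 CPM) and SH SNA replicate 3 (515.7 CPM) the highest, and 2 of the 3 were called higher after SNA in SH and none in EE. The same libraries were highest for the 6 Schwann cell genes (11470 and 10640 CPM, against 5921 to 8803 CPM in the other 10), of which none was called in either housing and 4 passed the unadjusted threshold as higher in each. Of 7 satellite glia genes 2 were called higher in SH and 1 in EE, and of the 9 macrophage genes 3 and 1. No neutrophil gene was called in either by edgeR after adjustment, and 4 of the 6 tested in SH and 2 in EE were higher at the unadjusted threshold. The part of these cell type markers in the differences described here was not tested. Without SH SNA replicate 2, Gadd45a, Gadd45g, Tet3 and Dnmt1 passed the adjusted threshold in SH, as with it. Without SH SNA replicate 3, Dnmt1 was lost (adjusted p = 0.07951 by edgeR) and the other 3 passed. Without EE + SNA replicate 3, Gadd45a, Gadd45g and Tet3 passed in EE, as with it. The share of all genes called in these smaller fits is not given here.

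The stretches before a RefSeq start of 3 genes that rose in both housings (Gadd45a, Gadd45g and Tet3) and of 1 that did not pass the test (Gadd45b) are printed to show how they differ in CpG and in sequence motifs. They come from the RefSeq promoter windows of GRCm38.p6 (250 bases before to 50 after the start, 14 windows for the 9 genes) and stop before the first GENCODE M21 exon base of the gene that follows, or at the RefSeq start where that comes first. Those of Gadd45a and Gadd45b end at the annotated start of the gene, and that of Gadd45g ends 3 bases short of it. Tet3 has 1 window, at a start inside the gene as annotated, so its stretch ends next to an internal exon, 17405 bases downstream of the gene's outermost start (83459084). Each reads 5′ to 3′ on the gene's strand, and capitals mark matches to the motifs searched on both strands.
Gadd45a, chr6:67037458-67037657, minus strand: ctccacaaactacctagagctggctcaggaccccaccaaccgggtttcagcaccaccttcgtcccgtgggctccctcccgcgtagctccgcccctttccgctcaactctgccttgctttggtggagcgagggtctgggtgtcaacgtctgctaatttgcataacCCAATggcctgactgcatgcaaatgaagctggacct
Gadd45g, chr13:51846425-51846674, plus strand: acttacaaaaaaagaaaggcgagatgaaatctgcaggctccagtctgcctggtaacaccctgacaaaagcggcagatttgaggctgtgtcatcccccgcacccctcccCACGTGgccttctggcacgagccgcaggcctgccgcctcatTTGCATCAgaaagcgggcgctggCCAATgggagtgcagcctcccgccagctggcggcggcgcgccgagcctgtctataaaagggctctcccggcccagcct
Gadd45b, chr10:80929841-80930072, plus strand: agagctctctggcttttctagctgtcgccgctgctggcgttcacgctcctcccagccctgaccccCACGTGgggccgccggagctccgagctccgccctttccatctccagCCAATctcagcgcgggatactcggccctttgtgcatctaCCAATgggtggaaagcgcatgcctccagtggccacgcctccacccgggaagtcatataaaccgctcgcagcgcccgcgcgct
Tet3, chr6:83441679-83441928, minus strand: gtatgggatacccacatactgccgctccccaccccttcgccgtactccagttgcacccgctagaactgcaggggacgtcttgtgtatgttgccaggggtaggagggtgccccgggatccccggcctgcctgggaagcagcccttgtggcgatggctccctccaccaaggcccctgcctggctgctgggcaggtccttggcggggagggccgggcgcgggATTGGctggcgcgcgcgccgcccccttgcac

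The motifs searched were the cyclic AMP response element (TGACGTCA), the AP-1 site (TGAGTCA or TGACTCA), the E-box CACGTG, the ATF4 composite element (TGATGNAA), the STAT element (TTCNNNGAA), the E2F site (TTTCGCGC or TTTGGCGC) and the CCAAT box. A CCAAT box was found in all 4 printed stretches, on the opposite strand in Tet3. Of all 32851 windows, 28.4% hold one in their first 200 bases (the length printed for Gadd45a). The share is 32.4% in their first 232 (Gadd45b) and 33.8% in their first 250 (Gadd45g and Tet3). In the whole windows of the other members the box was found for Dnmt1 and Uhrf1 and not for Tet1, Tet2 or Dnmt3a, beside 37.4% of all windows. The E-box was found in Gadd45g and Gadd45b and is in 6.02% and 5.41% of stretches of their lengths. Gadd45g alone of these 4 held the ATF4 composite element, on the opposite strand, which 3.45% of stretches of 250 bases hold. None of the 4 held the cyclic AMP response element (in 0.828% of all stretches of 200 bases and 1.55% of those of 250), the AP-1 site (3.61% and 4.46%), the STAT element (5.76% and 7.02%) or the E2F site (0.539% and 0.654%). In the whole windows of 300 bases, 0.813% of which hold it, the E2F site was found for Dnmt1 and Uhrf1 among the other members. For both genes the window that held it was at a start inside the gene as annotated. In Dnmt1 the matches lay at −219 and 34 bases from that start, and in Uhrf1 at −185. The windows at or next to the outermost starts of these genes held no E2F site. The ratio of observed to expected CpG was 0.91 (Dnmt1) and 0.959 (Uhrf1) in the windows with the site. At or next to the outermost starts it was 0.101 and 0.472. Which start is used in these ganglia was not tested. These matches are letters in a window, not binding sites. The printed stretches of Gadd45a, Gadd45g, Gadd45b and Tet3 held 9, 16, 21 and 17 CpG. In their whole windows the ratio of observed to expected CpG was 0.508 for Gadd45a, 0.723 for Gadd45g, 0.858 for Gadd45b and 0.576 for Tet3, and 8 of the 14 windows of the 9 genes had a ratio of at least 0.6 with at least 50% G and C, as did 33.5% of all windows.

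Levels are compared between genes on the deposited FPKM, which are divided by gene length. The lengths behind these FPKM differ unevenly from the GENCODE exon lengths. For Tet2 they are 9229 and 16870 bases, and for Tet1 14790 and 15457. The order of genes at close levels and the shares within families therefore hold for the authors' lengths. Gadd45a was the most abundant of the 9, with a median of 92.57 FPKM over the 12 samples (36.9 to 162.3), and its mean lay at percentile 96.5 of the tested genes. Gadd45g followed with a median of 28.96 FPKM (17.86 to 39.58), then Gadd45b (4.866, 3.859 to 5.374), Dnmt1 (4.424, 3.667 to 5.542) and Tet3 (3.316, 2.139 to 4.624). Dnmt3a had a median of 1.327 FPKM (0.9698 to 1.492), Tet2 1.052 (0.9198 to 1.359), Tet1 0.3994 (0.3211 to 0.492) and Uhrf1 0.1642 (0.06295 to 0.5016). Not all neighbours in this order were separated. Gadd45b exceeded Dnmt1 in 7 of 12 samples, Dnmt3a exceeded Tet2 in 9 of 12 and Tet1 exceeded Uhrf1 in 11 of 12, while each of the other neighbouring pairs kept its order in 12 of 12 samples.

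**Figure D1:**
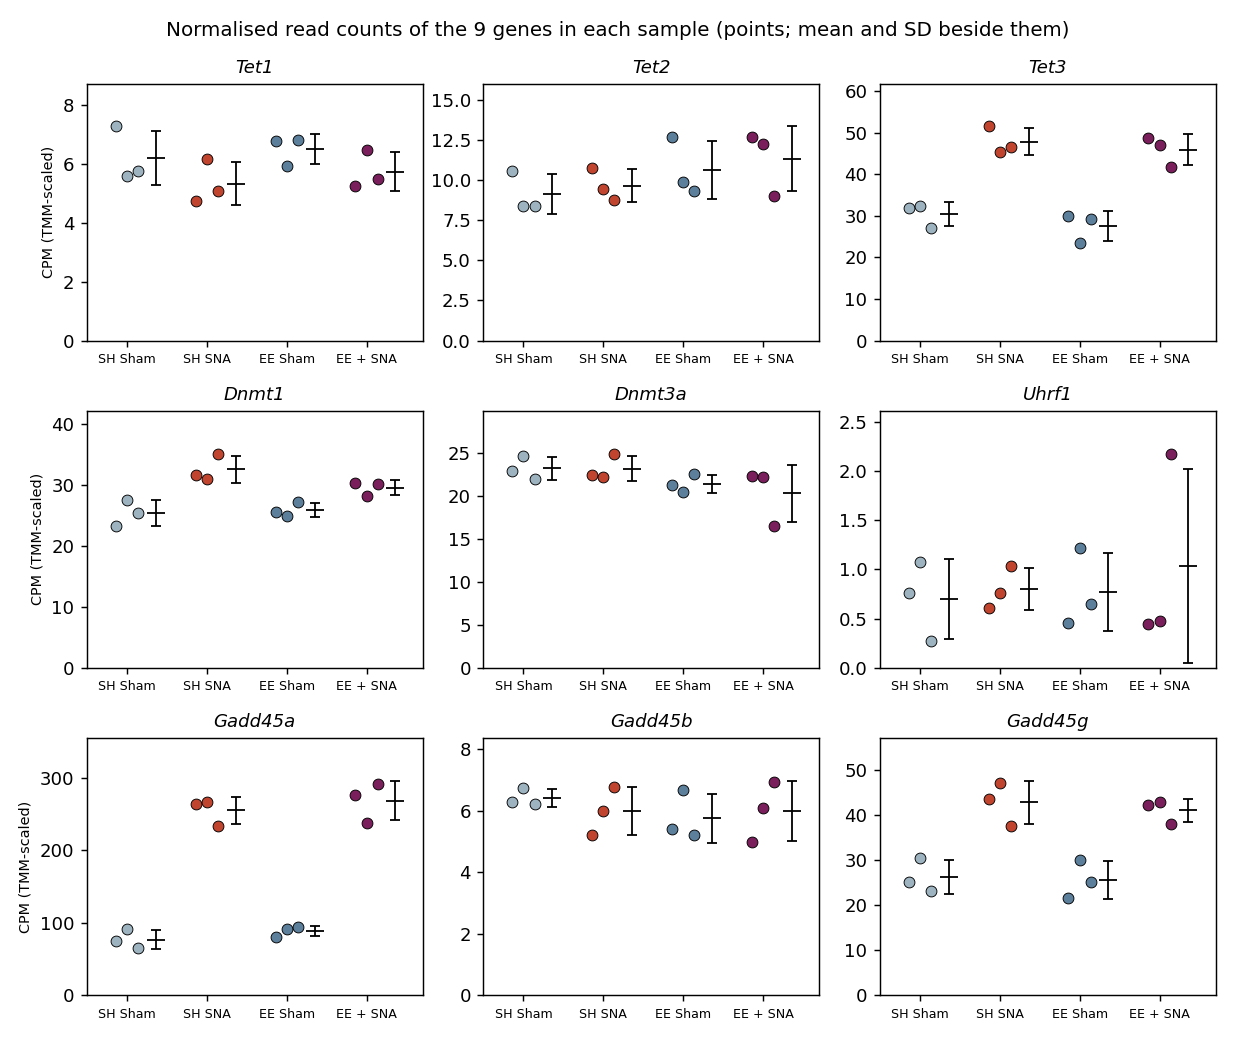
Normalised read count (CPM, TMM-scaled, vertical axis from 0) of each of the 9 genes by group, with 1 point per sample (replicates 1 to 3 from left to right) and the mean and SD of the 3 samples beside them. Gadd45a sits between 64.92 and 93.5 CPM in the sham samples and between 234.4 and 291.6 CPM after SNA, and Gadd45g, Tet3 and Dnmt1 are also separated between sham surgery and SNA within each housing.

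The first comparison asks what SNA changes in SH. After SNA, 4 of the 9 genes rose (Gadd45a, Gadd45g, Tet3 and Dnmt1) and none fell at an adjusted p of 0.05 (edgeR's quasi-likelihood test, Benjamini-Hochberg over all tested genes). Over all 16238 genes, 11.2% were called, 6.06% as higher. The same 4 genes were called at an unadjusted p of 0.05, which 25.2% of all genes reached, and the same 4 had groups that did not overlap, against 29.4% of all genes. The median log2 fold change of the 9 was 0.20, beside 0.00465 over all tested genes. Since the 9 were chosen with earlier results of these data known, the shares here and in EE describe the set and do not test it.

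The second comparison asks the same in EE, with no sample in common with the first. Gadd45a, Gadd45g and Tet3 rose after SNA and none of the 9 fell, so 3 of 9 were called. Of all genes 4.83% were called, 2.51% as higher. At an unadjusted p of 0.05, which 20.6% of all genes reached, Dnmt1 was called too. The 4 genes that had groups without overlap were again Gadd45a, Gadd45g, Tet3 and Dnmt1, against 25.8% of all genes. The median log2 fold change of the 9 was 0.18.

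**Figure D2:**
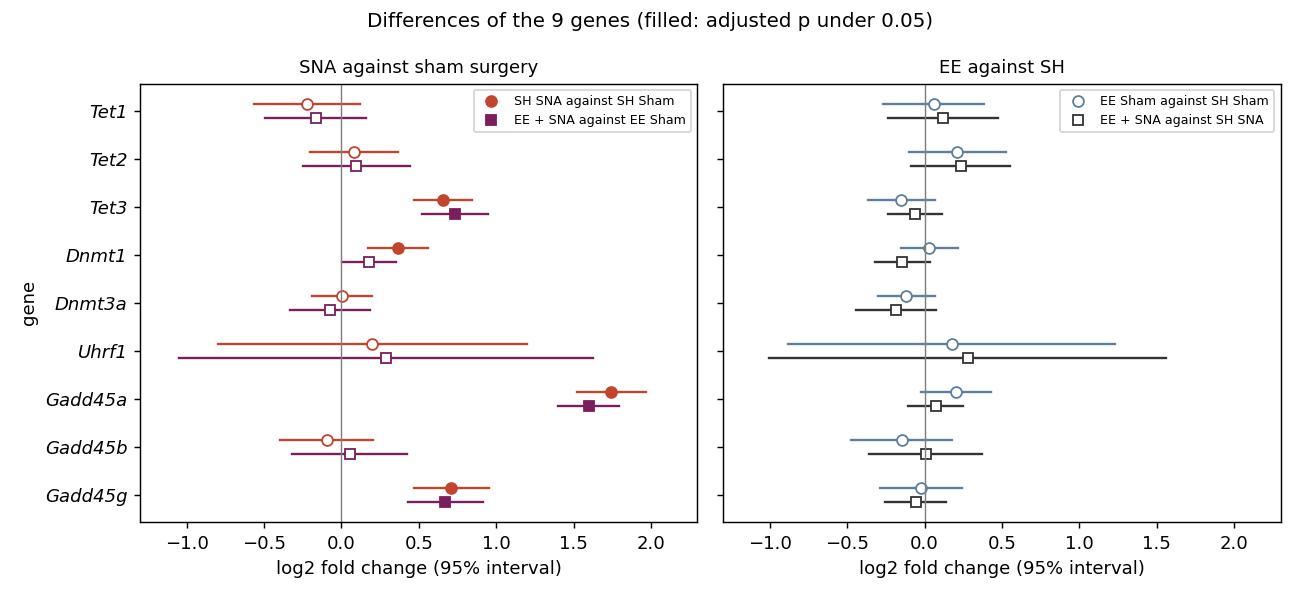
Log2 fold change with its 95% interval (horizontal axis) of each gene for SNA against sham surgery (left) and EE against SH (right), filled where the adjusted p is under 0.05. On the left Gadd45a lies at 1.74 in SH and 1.60 in EE, with Gadd45g, Tet3 and, in SH, Dnmt1 also filled, and on the right no symbol is filled.

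Gadd45a (ENSMUSG00000036390) lies on chromosome 6 of GRCm38 from 67035096 to 67037457, on the minus strand, and encodes the family member first known for its induction by DNA damage. Its CPM were 74.15, 90.53 and 64.92 in SH Sham and 264.7, 267.6 and 234.4 in SH SNA. In EE Sham they were 79.86, 91.22 and 93.5, and in EE + SNA 276.9, 238.4 and 291.6. All 6 samples after SNA were above all 6 sham samples, with no value between 93.5 and 234.4 CPM. Its log2 fold change after SNA was 1.74 in SH (SE 0.10, adjusted p = 1.192e-06 by edgeR), a 3.35-fold rise with a 95% interval of 2.87 to 3.90. In EE it was 1.60 (SE 0.09, adjusted p = 4.236e-06), a 3.03-fold rise with an interval of 2.64 to 3.47. The difference between the effects, the interaction of housing and surgery, was −0.14 on the log2 scale (95% interval −0.45 to 0.18, adjusted p = 0.9999).

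A second gene, E230016M11Rik, is annotated on the other strand and shares 337 of the 1764 exon bases of Gadd45a (19.1%). Neither the labels nor the methods state the strand setting of the counting, and reads in these bases cannot be told apart without strand. E230016M11Rik was examined after its counts had been seen. Its CPM were 22.29, 25.82 and 23.33 in SH Sham, 79.75, 81.37 and 65.74 in SH SNA, 25.54, 28.84 and 29.98 in EE Sham and 82.5, 76.23 and 70.27 in EE + SNA. It thus moved in the same direction as Gadd45a, by 3.18-fold in SH (log2 fold change 1.67, SE 0.09, adjusted p = 9.17e-07) and 2.70-fold in EE (log2 fold change 1.43, SE 0.09, adjusted p = 6.868e-06). Of all reads, 46.74% to 47.57% fell on no annotated feature and 0.3142% to 0.3699% were set aside as ambiguous between features. How many reads of Gadd45a were counted for E230016M11Rik, or left out, was not tested. The exons of Dnmt3a and Tet2 share 0.799% and 0.255% of their bases with a gene on the other strand, and those of the other members share none.

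**Figure D3:**
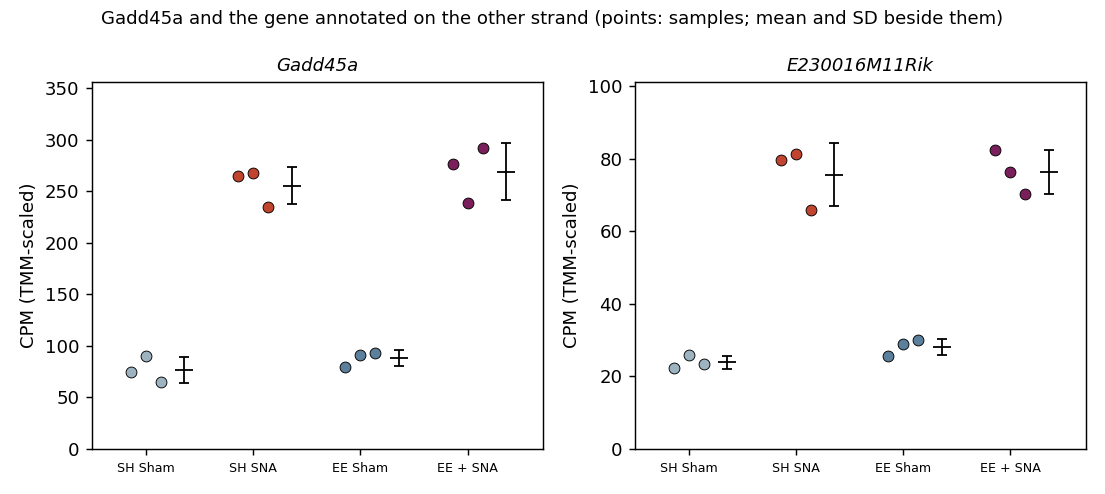
Normalised read count (CPM, TMM-scaled) by group of Gadd45a (left) and of E230016M11Rik, the gene annotated on the other strand (right), with 1 point per sample and the mean and SD beside them. Both are higher in all 6 SNA samples than in all 6 sham samples, with E230016M11Rik at 22.29 to 29.98 CPM after sham surgery and 65.74 to 82.5 CPM after SNA.

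Gadd45g (ENSMUSG00000021453, chromosome 13, 51846678 to 51848468, plus strand) encodes the family member that cytokines and differentiation signals induce. Its CPM were 25.11, 30.41 and 23 in SH Sham and 43.58, 47.06 and 37.56 in SH SNA. In EE Sham they were 21.57, 30.05 and 25.1, and in EE + SNA 42.18, 42.73 and 38.04. All 6 samples after SNA were above all 6 sham samples. The log2 fold change was 0.71 in SH (SE 0.11, adjusted p = 0.001441 by edgeR, 1.64-fold) and 0.67 in EE (SE 0.11, adjusted p = 0.004864, 1.59-fold). The interaction was −0.03 (95% interval −0.39 to 0.33, adjusted p = 0.9999).

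Gadd45b (ENSMUSG00000015312, chromosome 10, 80930073 to 80932204, plus strand) is the member known as an early response gene of neuronal activity. Its CPM were 6.277, 6.743 and 6.218 in SH Sham and 5.199, 5.999 and 6.765 in SH SNA. In EE Sham they were 5.414, 6.679 and 5.199, and in EE + SNA 4.984, 6.092 and 6.931. The groups overlapped, and no test was passed. The log2 fold change after SNA was −0.10 in SH (95% interval −0.40 to 0.20, adjusted p = 0.73 by edgeR) and 0.05 in EE (−0.32 to 0.42, adjusted p = 0.901), intervals that leave out a rise as large as those fitted for Gadd45g. Whether the effects on Gadd45b and Gadd45g differ was not tested.

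The summed level of the 3 GADD45 genes per length was 70.87 ± 11.07 FPKM (SD, n = 3) in SH Sham and 184.6 ± 13.3 in SH SNA, and 75.95 ± 9.006 in EE Sham and 189.6 ± 11.97 in EE + SNA. Gadd45a made up 60.02% to 62.15% of this sum in SH Sham and 77.18% to 78.43% in SH SNA. In EE its share was 62.6% to 67.51% in EE Sham and 76.62% to 81.35% in EE + SNA. The share of Gadd45g was 27.06% to 31.97% after sham surgery and 15.96% to 20.65% after SNA, lower although its own level rose. Gadd45b held 5.231% to 8.009% after sham surgery and 1.999% to 3.139% after SNA.

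**Figure D4:**
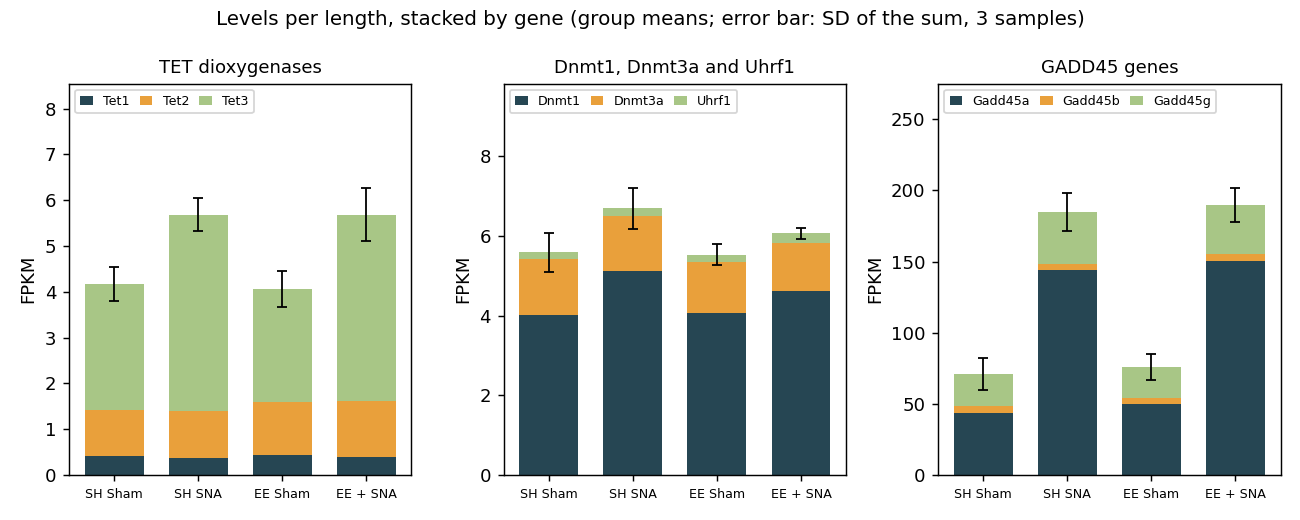
Mean FPKM per group (vertical axis from 0), stacked by gene, for the TET genes (left), for Dnmt1, Dnmt3a and Uhrf1 (middle) and for the GADD45 genes (right), with the SD of the sum over 3 samples as error bar. The GADD45 sum goes from 70.87 FPKM in SH Sham to 184.6 in SH SNA, mostly as Gadd45a, and the TET sum from 4.165 to 5.688 FPKM, mostly as Tet3.

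Of the TET genes, Tet3 rose after SNA and Tet1 and Tet2 did not pass the test. Tet3 (ENSMUSG00000034832, chromosome 6, 83362373 to 83459084, minus strand) encodes the TET enzyme known for oxidizing methylcytosine in the fertilized egg and also expressed in neurons. Its CPM were 31.79, 32.42 and 27.08 in SH Sham and 51.46, 45.37 and 46.64 in SH SNA. In EE Sham they were 29.87, 23.45 and 29.24, and in EE + SNA 48.77, 47.04 and 41.66. All 6 samples after SNA were above all 6 sham samples. The log2 fold change was 0.65 in SH (SE 0.09, adjusted p = 0.00046 by edgeR, 1.57-fold with a 95% interval of 1.38 to 1.79) and 0.73 in EE (SE 0.10, adjusted p = 0.001442, 1.66-fold, 1.43 to 1.93). The interaction was 0.09 (95% interval −0.21 to 0.38, adjusted p = 0.9999).

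Tet1 (ENSMUSG00000047146, chromosome 10, 62804570 to 62908996, minus strand) was counted 59 to 149 times per sample. Its CPM were 7.274, 5.595 and 5.75 in SH Sham, 4.74, 6.168 and 5.093 in SH SNA, 6.768, 5.92 and 6.824 in EE Sham and 5.251, 6.483 and 5.48 in EE + SNA. The groups overlapped, and the log2 fold change after SNA was −0.22 in SH (95% interval −0.57 to 0.12, adjusted p = 0.422 by edgeR) and −0.17 in EE (−0.49 to 0.16, adjusted p = 0.576). Tet2 (ENSMUSG00000040943, chromosome 3, 133463679 to 133545139, minus strand) had CPM of 10.56, 8.393 and 8.424 in SH Sham and 10.78, 9.463 and 8.754 in SH SNA, and of 12.72, 9.866 and 9.342 in EE Sham and 12.73, 12.27 and 9.026 in EE + SNA. Here too the groups overlapped. For Tet2 the log2 fold change was 0.08 in SH (95% interval −0.20 to 0.37, adjusted p = 0.76 by edgeR) and 0.10 in EE (−0.25 to 0.44, adjusted p = 0.781).

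Per length, Tet3 made up 63.55% to 69.32% of the summed TET FPKM in SH Sham and 73.84% to 76.39% in SH SNA. In EE its share went from 58.88% to 64.03% in EE Sham to 70.47% to 73.49% in EE + SNA. The share of Tet2 was 21.67% to 30.53% in the sham samples and 17.32% to 22.57% after SNA, and that of Tet1 9.015% to 11.26% and 5.25% to 7.565%.

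Dnmt1 (ENSMUSG00000004099, chromosome 9, 20907209 to 20959888, minus strand), the maintenance methyltransferase, had CPM of 23.23, 27.47 and 25.34 in SH Sham and 31.58, 30.92 and 35.1 in SH SNA. In EE Sham they were 25.54, 24.89 and 27.21, and in EE + SNA 30.26, 28.15 and 30.14. The samples after SNA were above the sham samples in both housings. The log2 fold change was 0.36 in SH (SE 0.09, adjusted p = 0.01997 by edgeR, 1.29-fold with a 95% interval of 1.12 to 1.47). This call was lost without SH Sham replicate 1 (adjusted p = 0.08364), without SH Sham replicate 3 (adjusted p = 0.05834), without SH SNA replicate 3 (adjusted p = 0.07951) and on the FPKM scale. In EE the log2 fold change was 0.18 (SE 0.08, adjusted p = 0.2317 by edgeR, 1.13-fold with an interval of 1.003 to 1.28). The effects in the housings were not shown to differ, since the interaction was −0.18 (95% interval −0.42 to 0.07, adjusted p = 0.9999).

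Dnmt3a (ENSMUSG00000020661, chromosome 12, 3806007 to 3914443, plus strand), the de novo methyltransferase, had CPM of 22.94, 24.68 and 21.93 in SH Sham, 22.4, 22.22 and 24.91 in SH SNA, 21.21, 20.42 and 22.5 in EE Sham and 22.25, 22.19 and 16.44 in EE + SNA. The groups overlapped, with the lowest value in EE + SNA replicate 3. Its log2 fold change after SNA was 0.00 in SH (95% interval −0.19 to 0.20, adjusted p = 0.991 by edgeR) and −0.07 in EE (−0.33 to 0.19, adjusted p = 0.777). The interval in SH leaves out changes beyond 0.876-fold and 1.15-fold.

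Uhrf1 (ENSMUSG00000001228, chromosome 17, 56303321 to 56323486, plus strand) was at the edge of what these libraries can measure, with 4 to 27 reads per sample. Its CPM were 0.7626, 1.076 and 0.2674 in SH Sham, 0.6117, 0.7604 and 1.035 in SH SNA, 0.4512, 1.214 and 0.6499 in EE Sham and 0.445, 0.4786 and 2.176 in EE + SNA. The groups overlapped, and EE + SNA replicate 3 was the highest of the 12. The same library had the highest sum of the 16 S phase and mitosis genes, 159.9 CPM against 93.27 to 116.3 CPM in the other 11. Its neutrophil and macrophage sums were high too. It was also the highest of the 12 for Gadd45a (291.6 CPM) and Gadd45b (6.931 CPM). Whether Uhrf1 goes with the S phase, neutrophil or macrophage sums was not tested. After SNA the log2 fold change of Uhrf1 was 0.20 in SH (95% interval −0.80 to 1.20, adjusted p = 0.843 by edgeR) and 0.29 in EE (−1.05 to 1.63, adjusted p = 0.836). Without EE + SNA replicate 3 the value in EE was −0.75 (SE 0.50, adjusted p = 0.514). Both intervals include 1 on the log2 scale, a 2-fold rise, which these samples therefore do not exclude.

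**Figure D5:**
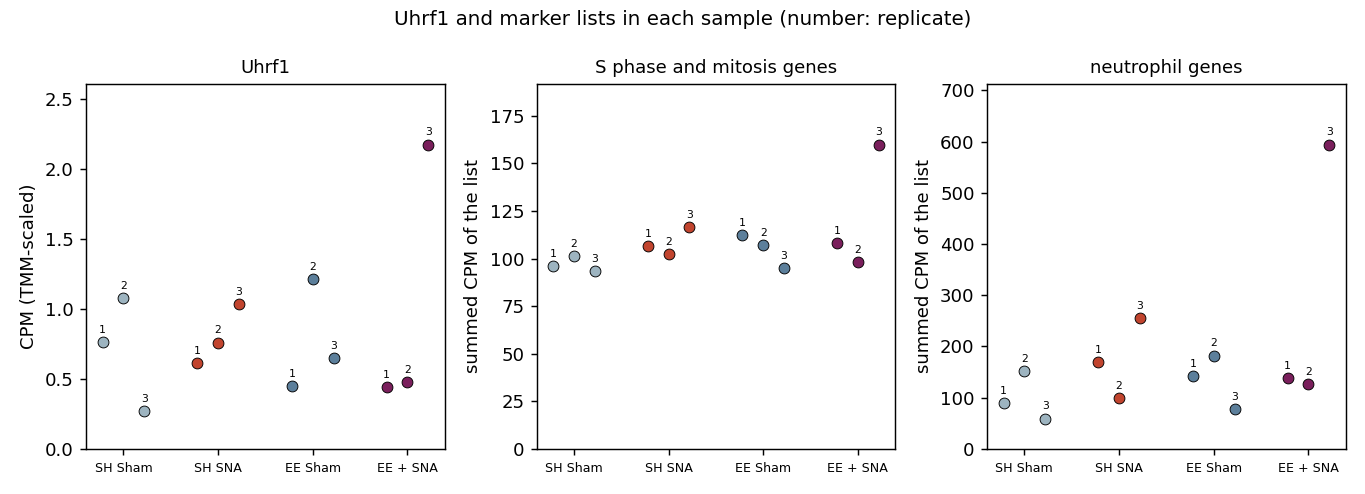
Uhrf1 (CPM, left) and the summed CPM of the S phase and mitosis genes (middle) and of the neutrophil genes (right) in each sample, by group and with the replicate number above each point. EE + SNA replicate 3 is the highest in all 3 panels, at 2.176, 159.9 and 594.3 CPM.

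The study set each condition against SH Sham, which adds EE + SNA against SH Sham. This comparison shares SH Sham with the first and EE + SNA with the second and is no independent support for either. Again 3 of the 9 genes rose, beside 12.5% of all genes called and 6.87% called higher. The log2 fold changes were 1.81 for Gadd45a (SE 0.11, adjusted p = 1.717e-06 by edgeR), 0.65 for Gadd45g (SE 0.10, adjusted p = 0.001096) and 0.59 for Tet3 (SE 0.09, adjusted p = 0.0009669). Dnmt1 was at 0.22 (SE 0.08, adjusted p = 0.1095) and passed the unadjusted threshold with the other 3, which 27.2% of all genes reached.

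The remaining comparisons of groups ask what housing changes. In EE Sham against SH Sham none of the 9 genes was called by edgeR, with or without adjustment, and none was called after adjustment by DESeq2. Of all genes 1 was called (0.00616%), and 2.97% reached an unadjusted p of 0.05. The log2 fold changes of the 9 lay between −0.15 (Tet3) and 0.21 (Tet2), and that of Gadd45a was 0.21 (95% interval −0.02 to 0.43, adjusted p = 0.9999). In EE + SNA against SH SNA none of the 9 was called either, by edgeR at the unadjusted or adjusted threshold or by DESeq2 after adjustment, beside 0% of all genes after adjustment and 4.10% without. Dnmt1 was lower in 3 of 3 EE + SNA samples (28.15 to 30.26 CPM) than in all SH SNA samples (30.92 to 35.1 CPM), with a log2 difference of −0.14 (95% interval −0.32 to 0.03, adjusted p = 0.9888). 10.4% of all genes had groups without overlap in this comparison. For Gadd45a the difference was 0.07 (95% interval −0.10 to 0.25), for Gadd45g −0.06 (−0.26 to 0.14) and for Tet3 −0.06 (−0.24 to 0.11). As folds, these intervals ran from 0.931 to 1.19 for Gadd45a, from 0.838 to 1.10 for Gadd45g and from 0.849 to 1.08 for Tet3.

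The test of whether SNA acts differently in the 2 housings called none of the 9 genes with edgeR, at either threshold, nor with DESeq2 after adjustment. Of all genes 0% passed after adjustment and 2.61% without. The interaction estimates of the 9 lay between −0.18 for Dnmt1 and 0.16 for Gadd45b on the log2 scale.

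Of the other genes of DNA methylation (45 in the lists of methyltransferase cofactors, TET cofactors and base excision repair, and readers of methylated or unmethylated CpG), 39 were tested. In SH SNA against SH Sham 5 of these rose and 3 fell (20.5% of the 39, beside 11.2% of all genes), with a median log2 fold change of 0.05. In EE + SNA against EE Sham 1 rose and 1 fell (5.13%, beside 4.83% of all genes), with a median of 0.02. Ahcy, which encodes the enzyme that clears the product inhibitor of methyl transfer, rose in both, by 0.42 on the log2 scale in SH (SE 0.06, adjusted p = 0.0009692 by edgeR) and 0.38 in EE (SE 0.06, adjusted p = 0.004862). Cxxc4, whose protein binds TET2 and promotes its loss, fell by 0.36 in SH (SE 0.09, adjusted p = 0.02294) and fell by 0.46 in EE (SE 0.12, adjusted p = 0.04416).

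The other called genes of these lists passed the adjusted threshold in SH and not in EE, which does not show that the housings differ, since no gene passed the test of the interaction after adjustment. Mat2a, which encodes the catalytic subunit that makes S-adenosylmethionine, the methyl donor, rose by 0.23 in SH (adjusted p = 0.01052 by edgeR) and was at 0.22 in EE (adjusted p = 0.08448). Uhrf2, the paralog of Uhrf1, rose by 0.27 in SH (adjusted p = 0.02346) and was at 0.20 in EE (adjusted p = 0.1875). Zbtb38, a zinc finger reader of methylated DNA, and Kdm2b, a reader of unmethylated CpG, rose by 0.28 (adjusted p = 0.009032) and 0.31 (adjusted p = 0.02687) in SH and were at 0.12 and 0.17 in EE. Hells, which encodes a chromatin remodeler needed for DNA methylation, fell by 0.59 in SH (SE 0.12, adjusted p = 0.008827), from 7.756 to 8.823 CPM in SH Sham to 5.239 to 5.65 CPM in SH SNA, and was at −0.44 in EE (SE 0.17, adjusted p = 0.1684). Cxxc5, the paralog of Cxxc4, fell by 0.40 in SH (adjusted p = 0.005617) and was at −0.26 in EE (adjusted p = 0.09864). Dnmt3b, Dnmt3l and Dppa3 did not pass the filter, and Dnmt3b was counted 3 to 11 times per sample.

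Among 17 genes of the proteins that bind GADD45 or act next to them, 2 rose and 1 fell in SH, where 11.2% of all genes were called, and 2 rose and none fell in EE, where 4.83% were. Cdkn1a, which encodes the cell cycle inhibitor p21, rose by 0.92 on the log2 scale in SH (SE 0.07, adjusted p = 9.319e-06 by edgeR) and by 0.66 in EE (SE 0.11, adjusted p = 0.004304). Mapk14, the gene of p38α, rose by 0.35 (adjusted p = 0.0028) and 0.29 (adjusted p = 0.03419). Map2k6, which encodes a kinase upstream of p38, fell by 0.76 in SH (SE 0.18, adjusted p = 0.01782) and was at −0.61 in EE (adjusted p = 0.1834). Map3k4, whose protein GADD45 activates, was at −0.13 in SH (adjusted p = 0.2784) and −0.21 in EE (adjusted p = 0.1232).

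Of 10 genes for regulators known to act upstream of GADD45 genes, 3 rose in SH (Myc, Ddit3 and Atf4) and 2 in EE (Myc and Ddit3). None fell, and 6.06% of all genes were called higher in SH and 2.51% in EE. The list was not sorted by whether a regulator raises or lowers GADD45 genes, so these counts carry no direction of action. Myc rose by 0.67 in SH (SE 0.09, adjusted p = 0.000679 by edgeR) and 0.51 in EE (SE 0.11, adjusted p = 0.02547). Ddit3 and Atf4, genes of the integrated stress response, were at 0.43 (adjusted p = 0.002495) and 0.32 (adjusted p = 0.00264) in SH and at 0.35 (adjusted p = 0.0281) and 0.33 (adjusted p = 0.05235) in EE. Trp53, the gene of p53, was at −0.10 in SH (adjusted p = 0.5246) and 0.13 in EE (adjusted p = 0.4593). Of 12 other targets of p53, 2 rose in each housing, Btg2 (0.68 in SH and 0.67 in EE) and Sesn2 (0.64 and 0.80). The other 10 were not called, beside the same 6.06% and 2.51% of all genes called higher. At an unadjusted p of 0.05 by edgeR, 6 of the 12 were higher in SH and 3 in EE, and none was lower. Of all genes 25.2% and 20.6% reached that threshold in either direction. The median log2 fold change of the 12 was 0.15 in SH and 0.12 in EE. Cdkn1a, counted above with the genes next to GADD45, is not among these 12. Mdm2 was at 0.19 (adjusted p = 0.1131) and 0.10 (adjusted p = 0.4516). Of the 15 S phase and mitosis genes tested, only Mcm7 rose in SH (0.39, adjusted p = 0.03214) and none was called in EE by edgeR after adjustment, where 1 passed without it.

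The genes most like each called member over the 12 samples were taken by Pearson's r of log2 CPM among 15343 tested genes with a mean of at least 1 CPM. The samples fall into sham and SNA samples, so that genes higher after SNA have a high r with each other, and the r are given as a description. Gadd45a was nearest to Smim3 (r = 0.994), Plaur (0.994), the gene of the urokinase receptor, and Atf3 (0.993), an injury-induced transcription factor. Gadd45g was nearest to Hr (0.981), Mafk (0.963) and Map4k4 (0.961), Tet3 to Phlda1 (0.974), Arhgap42 (0.971) and Abhd5 (0.967), and Dnmt1 to Txnrd1 (0.963), Ctnna3 (0.962) and Zdhhc3 (0.956).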

How the data were processed

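RNAseq of 12 samples (4 groups of 3) was analysed. Per the labels, the authors aligned to mm10 with TopHat2 2.0.12 and used HTSeq for gene counts, and the deposited counts are raw. The deposited FPKM, divided by gene length and library total, kept a constant ratio to the counts within 0.0635% for each of 16071 genes checked. The strand setting of the counting is not given in the sources used here.

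edgeR 4.0.16 (R 4.3.3) supplied the TMM factors and filterByExpr the filter (10 counts, total of 15). A comparison of groups used its 6 samples and the interaction all 12, in the two-sided quasi-likelihood F test (glmQLFit, glmQLFTest), with Benjamini-Hochberg adjustment over 16238 genes and a threshold of 0.05. The same functions were tested on simulated data. SEs were worked out from each fold change and its F statistic, and the 95% intervals from these SEs. An interval need not match its p-value exactly. The p-values rest on the spread between pools of mice. FPKM were used for levels per length, with no test. An exact permutation test of 3 against 3 samples cannot go below p = 0.1 and was not used for calls. Replicates of a group differed by more than sampling noise, so all were counted.

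Pairing by replicate number was checked through correlations of the samples' deviations from their group means. For EE Sham against SH Sham all 3 pairs were above 0.1 (0.112, 0.137 and 0.331), the mark set for a pair. A pair of unlike numbers reached 0.194 there, so the correlations do not settle whether the numbers pair these samples. In the other comparisons a pair fell below 0.1. In EE + SNA against SH SNA the pairs of like number (0.0573 to 0.126) were all above those of unlike number (at most 0.0403).

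The members and lists were chosen with earlier results of these data known. Named genes are the 9 members, up to 4 called genes of each other list by smallest p, and the 3 genes nearest in pattern to each called member. Alternatives were scaling by library size only, DESeq2 1.42.0, the likelihood ratio test, no filter, a minimum of 10 counts per sample throughout (14736 genes), a single fit of all 12 samples, a replicate block, limma 3.58.1 on log2(FPKM + 1) or log2(FPKM + 0.1), and each sample left out. Positions are from GENCODE M21 on GRCm38 (mm10), and all 9 members matched. Promoter windows are from RefSeq. Figures were drawn with Matplotlib.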

Additional observations from a re-analysis of the deposited data

How the results depend on the processing

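Of 150 alternative values of members called after adjustment, 145 kept their direction and stayed past the threshold, and none of the 849 alternative values of the members reversed a call or passed the threshold anew. The 5 that lost it were all Dnmt1 in SH SNA against SH Sham: 0.29 on log2(FPKM + 1) (adjusted p = 0.07015), 0.34 on log2(FPKM + 0.1) (adjusted p = 0.06624), 0.30 without SH Sham replicate 1, 0.36 when SH Sham replicate 3 was left out and 0.30 when SH SNA replicate 3 was. The count of members called in that comparison was thus 3 or 4 under all alternatives, and it was 3 in EE + SNA against EE Sham. The share of all genes called under each alternative is not given here, so these counts describe the members only. The added 1 shrinks fold changes of low genes more than the added 0.1 does, and the Dnmt1 call was lost with both. With a replicate block the counts stayed at 4 in SH and 3 in EE, and the block changed no member's call, also in EE Sham against SH Sham. For 54 values the sign changed where neither fit called the gene. Uhrf1 had no value where each sample had to reach 10 counts, and its value in EE + SNA against EE Sham went from 0.29 to −0.75 without EE + SNA replicate 3. For Gadd45a the log2 fold change ranged from 1.64 to 1.88 in SH and from 1.53 to 1.67 in EE, for Gadd45g from 0.62 to 0.83 and 0.56 to 0.80, and for Tet3 from 0.50 to 0.70 and 0.55 to 0.80. Depth limits Uhrf1 (4 to 27 reads).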
